A study of Mus musculus with 15 samples.

Results

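Transcript levels of 8 genes of the choroid plexus epithelium were compared between diets in 2 brain regions: Ttr, Kl, Kcnj13, Folr1, Clic6, Otx2, Enpp2 and Sostdc1. They were taken by name as a set of genes with known use in this epithelium, and with earlier results of these data known. All 8 were found, each at 1 locus, among the 23589 loci with a gene name (33603 loci in all). The choroid plexus hangs in the brain ventricles, next to the hippocampus in the lateral ventricle. Its epithelium secretes cerebrospinal fluid, carries folate, thyroid hormone and vitamins into it, and releases proteins such as transthyretin and klotho. Neurons and glia of the hippocampus express little of most of these genes, but oligodendrocytes also make Enpp2 and some neurons Kl.

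Male C57BL/6 mice were fed ad libitum (AL, 5 months of age), received 60% of the AL intake for 1 month from 4 months of age (DR, 5 months of age), or returned from DR to AL feeding for 2 months (DR-AL, 7 months of age). All groups were of the same strain, with no other treatment named, and DR-AL differs from the other groups in age as well as in diet history, which cannot be told apart. The question was whether an effect of short-term restriction stays after the return to AL feeding. Liver, epididymal fat, colon, hypothalamus and hippocampus each gave 1 library per diet from the pooled RNA of 5 mice, 15 libraries in all, so no difference between diets within a tissue has a replicate check. A gene was called different between 2 libraries at a Benjamini-Hochberg adjusted p under 0.05 in the Z test of the study's methods and a level at least 25% above the other one, and this test holds for the 2 libraries, on counting error, and not for the diets. Levels are CPM, the counts of a gene relative to all counts on named loci of its library, differences are log2 ratios of depth-scaled counts plus 0.5, and intervals are exact 95% intervals that cover counting error only. Depth was between 21767088 and 40500130 counts per library, and 3 counts, the limit that a count of 0 allows, stood for 0.0741 to 0.138 CPM.

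The 8 genes lie on 8 chromosomes of GRCm38, printed with their strand as annotated in GENCODE M21. Among the secreted proteins, Ttr (transthyretin, the carrier of thyroxine and of the retinol-binding protein) lies at chr18:20665280-20674321 (+), and Enpp2 (autotaxin, the enzyme that makes lysophosphatidic acid) at chr15:54838901-54952892 (-). Sostdc1, an antagonist of BMP and Wnt signals, lies at chr12:36314139-36318452 (+).

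Kl (klotho, the co-receptor for FGF23 that is also shed into blood and cerebrospinal fluid) lies at chr5:150952607-150993817 (+), and Kcnj13 (the inward rectifier potassium channel Kir7.1 of the apical membrane) at chr1:87386363-87394729 (-). Folr1 (folate receptor alpha, which carries folate across the epithelium) lies at chr7:101858331-101870788 (-), and Clic6 (a member of the chloride intracellular channel family) at chr16:92485736-92541243 (+). Otx2, a homeodomain transcription factor needed to form the choroid plexus, lies at chr14:48657677-48673819 (-). The loci counted for Kl and Kcnj13 were longer in the table than the annotated genes, 133940 against 41211 bases for Kl and 123814 against 8367 bases for Kcnj13, so their counts can hold reads from outside the gene. Clic6 and Otx2 overlap an annotated gene on their own strand, 2410124H12Rik and Gm49154, and reads of these pairs could not be separated.

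Because all 8 genes were lower together in 1 library, the bases before the start site are shown for 3 of the 8 members. They were taken from the RefSeq promoter table (GRCm38.p6), as the sequence next to these starts. That other members are not shown does not mean that this reference lacked them. The 250 bases before the start are given 5′ to 3′ on the strand of the gene, for Kl at chr5:150952357-150952606 (+), for Kcnj13 at chr1:87394730-87394979 (-) and for the 1 of 4 Otx2 start sites that held an OTX motif at chr14:48665110-48665359 (-). Capitals mark a match to TAATCC, the core of the OTX motif, or to TATAAA, both searched on either strand.
Kl: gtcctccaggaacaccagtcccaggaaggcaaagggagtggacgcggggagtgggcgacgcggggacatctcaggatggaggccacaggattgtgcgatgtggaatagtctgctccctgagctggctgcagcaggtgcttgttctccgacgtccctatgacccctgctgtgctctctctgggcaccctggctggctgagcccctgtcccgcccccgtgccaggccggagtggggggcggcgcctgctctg
Kcnj13: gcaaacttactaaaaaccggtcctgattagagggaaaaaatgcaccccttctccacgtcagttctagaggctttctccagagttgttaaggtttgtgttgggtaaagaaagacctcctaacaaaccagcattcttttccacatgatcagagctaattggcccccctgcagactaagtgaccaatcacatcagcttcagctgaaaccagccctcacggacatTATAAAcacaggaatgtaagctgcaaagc
Otx2: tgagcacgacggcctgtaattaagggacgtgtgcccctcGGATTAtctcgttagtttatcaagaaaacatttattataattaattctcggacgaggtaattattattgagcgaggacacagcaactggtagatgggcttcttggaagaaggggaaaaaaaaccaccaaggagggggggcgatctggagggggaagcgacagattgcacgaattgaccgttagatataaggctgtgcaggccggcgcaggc
Kcnj13 held TATAAA close to the start, which 12.4% of 32851 promoters of this length also held somewhere. The Otx2 start held GGATTA, the other strand of TAATCC, and was picked from 4 starts for it. The motif was found in 6.25% of all promoters, a share for single windows and not for a pick from 4. Another Otx2 start, not printed, held TATAAA. Kl held neither, and its 250 bases had 13 CG pairs and 66.8% G and C, against medians of 6 and 52.4% over all promoters. The letters are a description of these windows and say nothing on binding.

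The order of the tissues differed from gene to gene, and each range is over the 3 libraries of a tissue. Ttr was highest in the liver, where hepatocytes secrete transthyretin into blood, at 4640 to 10879 CPM, followed by the hippocampus at 1641 to 2693 CPM. Its levels in fat (0.731 to 471 CPM) overlapped those in the colon (25.3 to 41.1 CPM) and in the hypothalamus (2.50 to 4.39 CPM). Enpp2 was highest in the hippocampus (809 to 1359 CPM), then in fat (281 to 433 CPM), a known source of autotaxin, then in the hypothalamus (149 to 182 CPM), the liver (67.5 to 79.2 CPM) and the colon (1.86 to 3.0 CPM), with no overlap between neighbours. Clic6 had its highest levels in the colon (64.0 to 88.9 CPM) and overlapping levels in the hippocampus (28.7 to 55.0 CPM) and the hypothalamus (32.7 to 46.3 CPM).

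The remaining 5 genes were highest in the hippocampus. Kl was at 69.2 to 107.5 CPM there, at 9.71 to 18.6 CPM in the hypothalamus and at 0.343 to 5.04 CPM in fat, and it had no count in the liver. Kcnj13 was at 22.0 to 39.1 CPM in the hippocampus and at 0.256 to 4.70 CPM in the hypothalamus. Otx2 was at 6.85 to 12.0 CPM and at 1.11 to 3.65 CPM in these regions, and Sostdc1 at 9.54 to 16.5 CPM and at 1.01 to 2.37 CPM, each without overlap. Folr1 was at 10.2 to 16.3 CPM in the hippocampus, overlapping fat (2.75 to 13.2 CPM), and at 0.769 to 0.947 CPM in the hypothalamus, overlapping the colon (0.329 to 1.05 CPM).

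**Figure D1:**
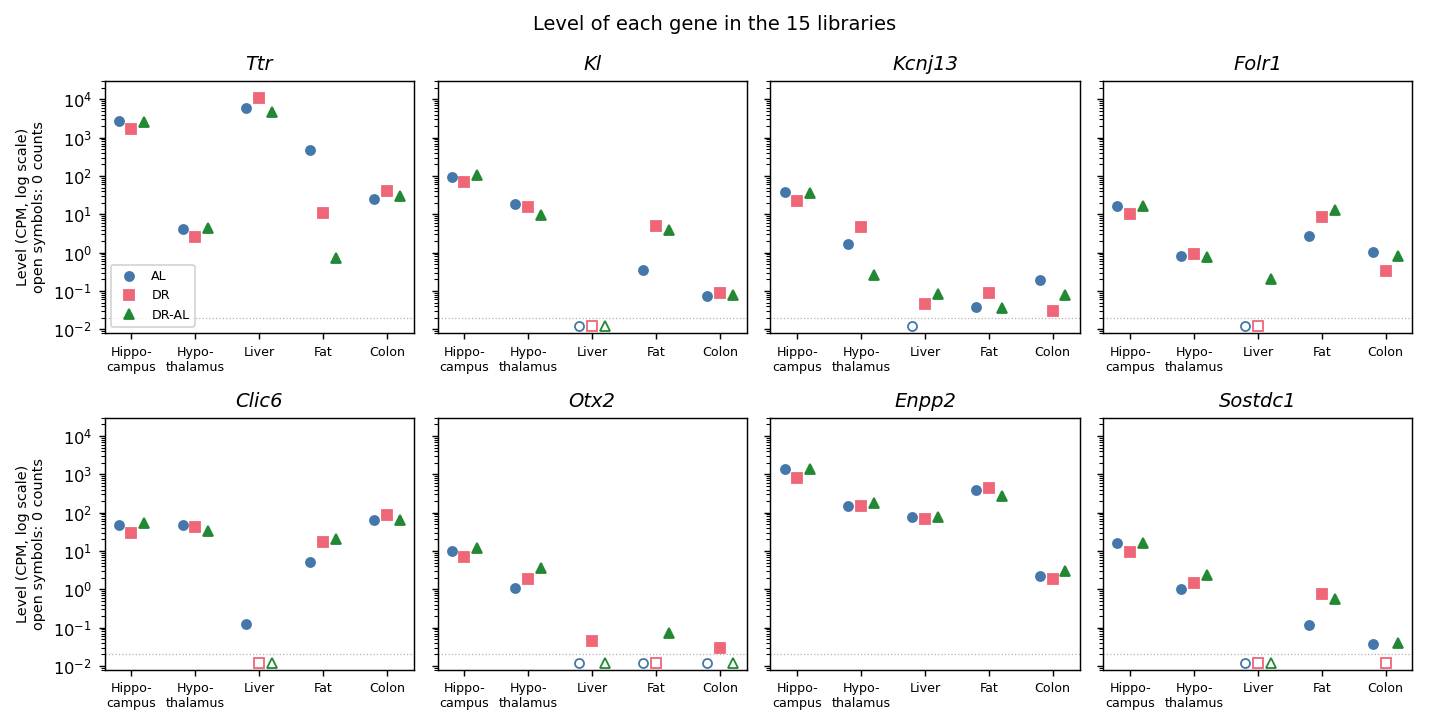
Level of each of the 8 genes in CPM on a log axis (vertical) by tissue (horizontal), 1 symbol for each of the 15 libraries, with AL, DR and DR-AL marked by colour and shape and open symbols for 0 counts. Hippocampal DR is the lowest hippocampal symbol in all 8 panels, while Ttr reaches 10879 CPM in the liver and is at most 4.39 CPM in the hypothalamus.

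In the hippocampus every one of the 8 genes was lower in the DR library than in the AL library, and every one was back near the AL level in the DR-AL library. Ttr had 109059, 51236 and 65481 counts in AL, DR and DR-AL, or 2693, 1641 and 2603 CPM. Ttr in the DR library was 39.1% below AL (log2 -0.71, interval -0.73 to -0.70), and DR-AL and AL differed by log2 -0.05. Enpp2 had 55031, 25251 and 34074 counts in AL, DR and DR-AL, or 1359, 809 and 1354 CPM. The enzyme's transcript was 40.5% lower in DR (log2 -0.75, interval -0.77 to -0.73) and at the AL level in DR-AL. Per transcript length, in the deposited FPKM of the AL library, Ttr stood at 1919 FPKM, Enpp2 at 294, Kl at 17.3, Kcnj13 at 11.7, Folr1 at 9.29, Clic6 at 8.82, Sostdc1 at 8.04 and Otx2 at 3.13.

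Among the genes of uptake, transport and the cell surface, Kcnj13 had the largest difference of the 8, with 1582, 687 and 920 counts in AL, DR and DR-AL (39.1, 22.0 and 36.6 CPM). The Kcnj13 level in DR was 43.7% below AL (log2 -0.83, interval -0.96 to -0.70). Folr1 had 650, 317 and 409 counts in AL, DR and DR-AL (16.0, 10.2 and 16.3 CPM) and was 36.7% lower in DR (log2 -0.66, interval -0.86 to -0.46). The folate receptor was thus at the same level in AL and DR-AL, with the DR library below both. Clic6 had 1949, 896 and 1385 counts (48.1, 28.7 and 55.0 CPM) and was 40.4% lower in DR (log2 -0.75, interval -0.86 to -0.63).

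Kl had 3909, 2160 and 2705 counts in AL, DR and DR-AL (96.5, 69.2 and 107.5 CPM), and its difference of log2 -0.48 (interval -0.56 to -0.40) between DR and AL was the smallest of the 8. Otx2, the regulator of the set, had 395, 214 and 302 counts (9.75, 6.85 and 12.0 CPM) and was 29.7% lower in DR (log2 -0.51, interval -0.76 to -0.27). Both were above AL in the DR-AL library by less than the fold needed for a call, as was Clic6. The differences were log2 0.16 for Kl (interval 0.08 to 0.23), 0.30 for Otx2 (interval 0.08 to 0.52) and 0.19 for Clic6 (interval 0.09 to 0.29). Sostdc1 had 644, 298 and 416 counts (15.9, 9.54 and 16.5 CPM) and was 39.9% lower in DR (log2 -0.74, interval -0.94 to -0.54).

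In counts of calls, 8 of 8 genes were lower in DR than in AL, where 2.67% of the 18804 genes tested were called lower, and the median difference was log2 -0.73 against -0.01 over all genes tested. Between DR-AL and AL, 0 of 8 were called by the Z test, with a median of log2 0.04, where 6.17% of all genes were called in either direction. Between DR-AL and DR, 8 of 8 were higher, by log2 0.64 (Kl) to 0.94 (Clic6) with a median of 0.74, where 3.63% of genes were called higher. The first and the last of these comparisons share the DR library, so both turn on that 1 pool. With an allowance for spread between pools, a coefficient of variation of 0.1 in the exact test of edgeR, 0 of 8 were called lower in DR, and with the dispersion estimated over the 3 hippocampal libraries without regard to diet 5 of 8 were. In bulk tissue, fewer choroid plexus cells in a sample and less of these transcripts per cell cannot be told apart.

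**Figure D2:**
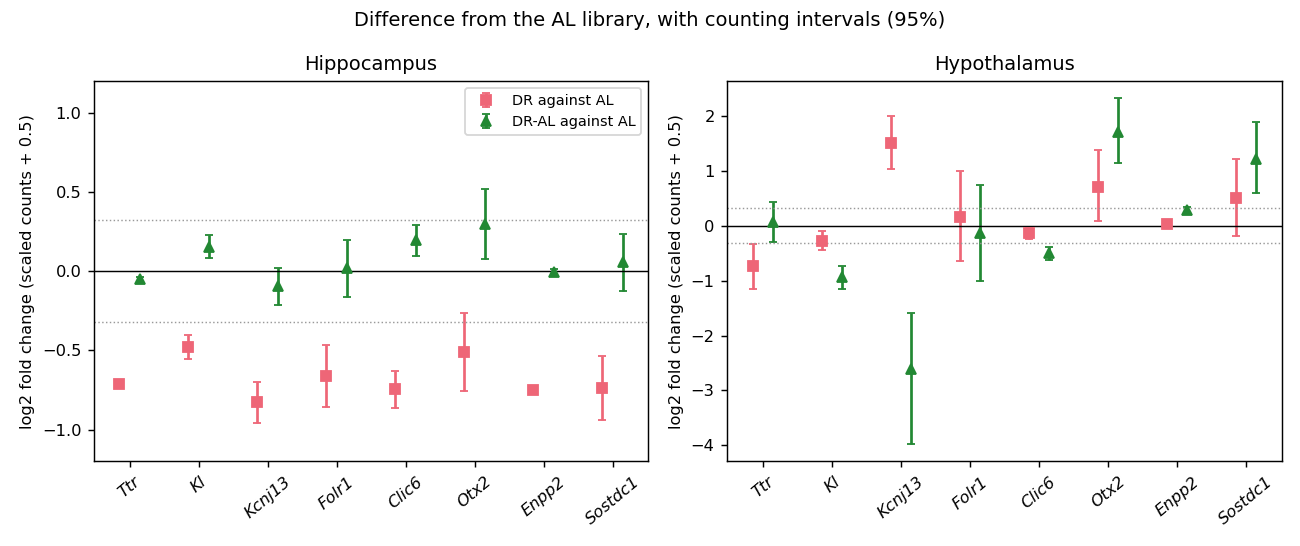
Difference from the AL library as log2 fold change of scaled counts (vertical, with exact 95% counting intervals) for the 8 genes (horizontal) in the hippocampus and the hypothalamus, squares for DR and triangles for DR-AL. In the hippocampus all DR squares lie between -0.83 and -0.48 and all DR-AL triangles between -0.10 and 0.30, and dotted lines mark the 25% needed for a call; the hypothalamus panel has a wider axis.

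Ttr and Enpp2 held nearly the same shares of the counts on the 8 genes in the AL, DR and DR-AL libraries of the hippocampus. The 8 genes took 0.428%, 0.260% and 0.420% of all counts in AL, DR and DR-AL. Of the counts on the 8 genes, Ttr held 63.0% in AL (interval 62.7 to 63.2%), 63.2% in DR (62.9 to 63.5%) and 62.0% in DR-AL (61.7 to 62.2%). Enpp2 held 31.8%, 31.2% and 32.2% of them in AL, DR and DR-AL. Kl held 2.26% in AL (interval 2.19 to 2.33%), 2.66% in DR (2.56 to 2.78%) and 2.56% in DR-AL (2.46 to 2.66%), and Otx2 0.228%, 0.264% and 0.286%.

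The hypothalamus held another mixture. The 8 genes took 0.0223%, 0.0222% and 0.0236% of all counts in AL, DR and DR-AL, and Ttr was only 1.88%, 1.13% and 1.86% of the counts on them. Enpp2, which oligodendrocytes also make, held 66.8%, 68.9% and 77.2% of them. Clic6 held 20.8%, 19.0% and 13.9%, and Kl, which neurons also express, 8.37%, 6.94% and 4.11%.

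**Figure D3:**
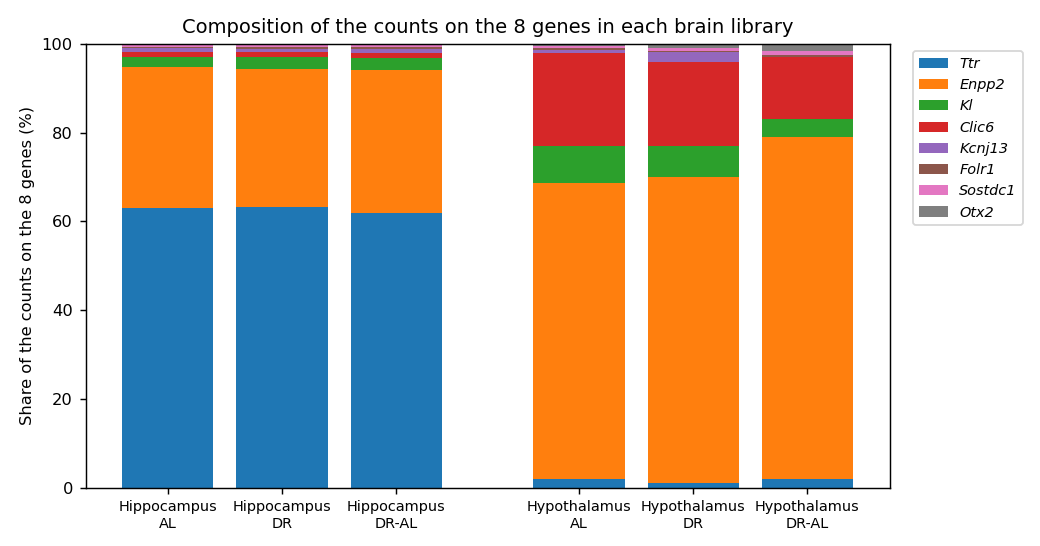
Share of the counts on the 8 genes that each gene took (stacked bars, percent, vertical) in the 6 brain libraries (horizontal). The 3 hippocampal bars are nearly alike, with Ttr between 62.0% and 63.2%, while Enpp2 makes up 66.8% to 77.2% of the hypothalamic bars and Ttr at most 1.88%.

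Between the regions, in a fit of the 6 brain libraries with terms for region and diet (edgeR quasi-likelihood test, 2 residual degrees of freedom), 7 of 8 genes were lower in the hypothalamus, where 33.4% of 15742 genes were called lower. The mice of a diet gave both regions, and with the diet term the regions are compared within each diet. Ttr had the widest gap, log2 -9.52 (edgeR adjusted p = 2e-06), and its hypothalamic level was 0.155%, 0.153% and 0.169% of the hippocampal level in AL, DR and DR-AL. Folr1 differed by log2 -4.24 and Kcnj13 by log2 -4.17, Sostdc1 by -3.35, Enpp2 by -3.06, Kl by -2.88 and Otx2 by -2.41 (edgeR adjusted p of at most 0.0019 for each). Clic6 differed by log2 -0.32 (edgeR adjusted p = 0.234), and its hypothalamic level was 96.3%, 147% and 59.4% of the hippocampal one in AL, DR and DR-AL. For Kcnj13 the gap was log2 -5.62 without the hippocampal DR library, -5.60 without the hypothalamic DR library and -3.46 without either DR-AL library, each left out in turn. Without the hippocampal or the hypothalamic DR library, Clic6 was also called lower in the hypothalamus, at log2 -0.62 in both.

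In the same fit, in which the regions of a diet are not independent mice, the difference of DR from AL over both regions was called for 0 of 8 genes by edgeR, with 1 of 8 at an unadjusted p under 0.05, and over all genes 1 (0.00635%) was called, with 713 at an unadjusted p under 0.05. That gene with the small unadjusted p was Ttr, at log2 -0.71, lower in DR in both regions (edgeR adjusted p = 0.945). DESeq2 called Ttr and 9 genes in all. For DR-AL against AL, 0 of 8 genes and 0.00% of all genes were called by edgeR, and 1 of 8 and 1363 of all genes had an unadjusted p under 0.05. DESeq2 called 0 of 8 and 45 in all.

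Within the hypothalamus the 8 genes did not move together. Ttr had 124, 82 and 137 counts in AL, DR and DR-AL (4.18, 2.50 and 4.39 CPM), with the DR library log2 -0.74 from AL (interval -1.16 to -0.32), on few counts. Kcnj13 went the other way, with 49, 154 and 8 counts in AL, DR and DR-AL (1.65, 4.70 and 0.256 CPM). The potassium channel was log2 1.5 higher in DR than in AL (interval 1.04 to 2.0) and log2 -2.61 from AL in DR-AL (interval -3.98 to -1.60). The other 6 genes were not called between DR and AL, with values from log2 -0.27 (Kl) to 0.71 (Otx2). So 1 of 8 was higher and 1 of 8 lower, where 4.33% and 2.73% of the 19320 genes tested were called.

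In the hypothalamic DR-AL library, 3 of 8 genes were lower than in AL and 2 of 8 higher, where 9.03% and 6.06% of all genes were called. Kl had 553, 505 and 303 counts in AL, DR and DR-AL (18.6, 15.4 and 9.71 CPM), a difference of log2 -0.94 (interval -1.15 to -0.74) between DR-AL and AL. Clic6 had 1375, 1382 and 1021 counts (46.3, 42.2 and 32.7 CPM), with DR-AL at log2 -0.50 from AL (interval -0.62 to -0.38). These lower values in DR-AL were for genes whose hippocampal DR-AL levels were not called different from AL. Otx2 had 33, 60 and 114 counts (1.11, 1.83 and 3.65 CPM), with DR-AL log2 1.70 above AL (interval 1.15 to 2.32). Sostdc1 had 30, 47 and 74 counts (1.01, 1.44 and 2.37 CPM), with DR-AL log2 1.22 above AL (interval 0.60 to 1.89). Ttr, Folr1 and Enpp2 were not called there, with Folr1 at 25, 31 and 24 counts and Enpp2 at 4414, 5012 and 5690 counts. Between DR-AL and DR, Ttr, Otx2 and Sostdc1 were higher (log2 0.81, 0.99 and 0.72) and Kl, Kcnj13 and Clic6 lower (log2 -0.67, -4.11 and -0.37), where 2.82% and 6.80% of genes were called. With the estimated dispersion (edgeR exact test), the calls went from 5 to 3 for DR-AL against AL, without Clic6 and Sostdc1, from 6 to 1 for DR-AL against DR, where Kcnj13 was left, and from 2 to 1 for DR against AL, without Ttr.

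Markers of several other cells and regions moved with these hypothalamic libraries. A list for ependyma, the lining of the ventricles, moved less, at 124.9, 131.7 and 118.6 CPM in AL, DR and DR-AL. Over all genes tested, 4.33% were called higher and 2.73% lower in DR, and 6.06% and 9.03% in DR-AL, each against AL. The 12 genes of a list for meninges and stroma, connective tissue at the brain surface, summed to 125.1, 243.3 and 62.5 CPM in AL, DR and DR-AL, with 12 of 12 higher in DR and 10 of 12 lower in DR-AL than in AL. Ogn, a matrix proteoglycan on that list, had 284, 894 and 73 counts (9.57, 27.3 and 2.34 CPM), and Slc22a6, an organic anion transporter, 163, 526 and 20 counts (5.49, 16.1 and 0.641 CPM), alongside Kcnj13 at 49, 154 and 8 counts. Igf2 and Slc13a4, which meninges share with the choroid plexus, had 1977, 5792 and 866 counts and 324, 1040 and 66 counts. A list of 7 genes of the thalamus, the region above, summed to 397.2, 413.5 and 502.3 CPM, with 5 of 7 higher in DR-AL, among them Prkcd (342, 431 and 1480 counts). The list for oligodendrocytes, which make Enpp2, summed to 3964.5, 4401 and 5924 CPM with 8 of 10 higher in DR-AL, and that for tanycytes, the cells lining the floor of the ventricle, to 229.7, 173.3 and 78.4 CPM with 5 of 7 lower in DR-AL. Lmx1a, an early regulator of the choroid plexus, had 73, 127 and 168 counts. Lmx1a, Igf2 and Slc13a4 were picked from lists of further choroid plexus genes, which did not move alike. In AL, DR and DR-AL the list for transport summed to 237.4, 265.9 and 226.3 CPM. Secreted proteins and carriers summed to 761.6, 812.1 and 590.4 CPM, and surface, junction and regulator genes to 410.3, 435.3 and 460.7 CPM. Liver genes, on a list that does not hold Ttr, summed to 12.8, 3.66 and 7.72 CPM in AL, DR and DR-AL, with 8 of 11 lower in DR and 3 of 11 lower in DR-AL than in AL, beside Ttr at 4.18, 2.50 and 4.39 CPM. Blood genes summed to 113.9, 57.2 and 37.0 CPM, with 4 of 4 lower in DR and in DR-AL, and colon genes to 18.6, 2.44 and 2.37 CPM, with 6 of 7 lower in both. The part of these differences in the values of Ttr, Kcnj13, Enpp2, Otx2 and the rest was not tested.

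Other genes of the choroid plexus were lower in the same hippocampal library. Of 46 loci from lists of 45 further genes, 29 were lower in DR than in AL and 0 higher by the Z test. Their median was log2 -0.48, and 2.67% of all genes tested were called lower. Between DR-AL and AL, 5 were higher and 0 lower, with a median of 0.08, where 6.17% of genes were called in either direction. Between DR-AL and DR, 32 were higher and 0 lower, where 3.63% of genes were called higher. These lists were chosen with earlier results of these data known. Several of the 45 genes are also expressed by neurons, glia or vessels. Among carriers and channels 8 of 16 loci were lower in DR, among them Slc4a5, a bicarbonate cotransporter of the epithelium, with 968, 348 and 738 counts in AL, DR and DR-AL (23.9, 11.1 and 29.3 CPM). Kcne2, a potassium channel subunit, had 493, 250 and 385 counts at its main locus (12.2, 8.01 and 15.3 CPM). Among secreted proteins and carriers 10 of 12 were lower, such as F5, coagulation factor V, with 1260, 580 and 993 counts (31.1, 18.6 and 39.5 CPM). Igf2 had 6723, 4121 and 3986 counts (166.0, 132.0 and 158.4 CPM).

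Among surface, junction and regulator genes 11 of 18 were lower in DR, where 2.67% of all genes tested were called lower. Steap1 had 214, 81 and 122 counts in AL, DR and DR-AL (5.28, 2.59 and 4.85 CPM), and Prlr, the prolactin receptor, 1392, 641 and 1028 counts (34.4, 20.5 and 40.9 CPM). The tight junction claudins Cldn1 and Cldn2 had 567, 286 and 409 counts (14.0, 9.16 and 16.3 CPM) and 562, 292 and 372 counts (13.9, 9.35 and 14.8 CPM). Lmx1a, a homeodomain regulator, had 51, 20 and 38 counts (1.26, 0.641 and 1.51 CPM) and was called lower in DR. Msx1, another, with 133, 74 and 105 counts (3.28, 2.37 and 4.17 CPM), and the epithelial keratin Krt18, with 166, 99 and 94 counts (4.10, 3.17 and 3.74 CPM), were not called.

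Markers of neighbouring cells in the hippocampus did not share this pattern in full. Over all genes tested, 4.04% were called in either direction between DR and AL, 2.67% lower, and 6.17% in either direction between DR-AL and AL. Ependyma, the ciliated lining of the ventricles, summed to 68.2, 66.2 and 64.3 CPM in AL, DR and DR-AL over 10 genes, of which 0 were called between DR and AL by the Z test. Meninges and stroma summed to 132.7, 169.5 and 154.6 CPM, with 3 of 12 higher in DR and 0 lower. The 9 genes of hippocampal neurons summed to 1100, 1104 and 1002 CPM, with 0 called in DR. Endothelium summed to 172.4, 169.1 and 218.1 CPM, with 1 of 6 lower in DR. Oligodendrocyte genes summed to 6057.5, 4975 and 5440.5 CPM, with 5 of 10 lower in DR and 4 of 10 lower in DR-AL. The haemoglobin genes and Alas2 summed to 60.9, 30.3 and 30.05 CPM, with 4 of 4 lower in both. The parts of oligodendrocytes and of blood in the values of the 8 genes were not tested.

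**Figure D4:**
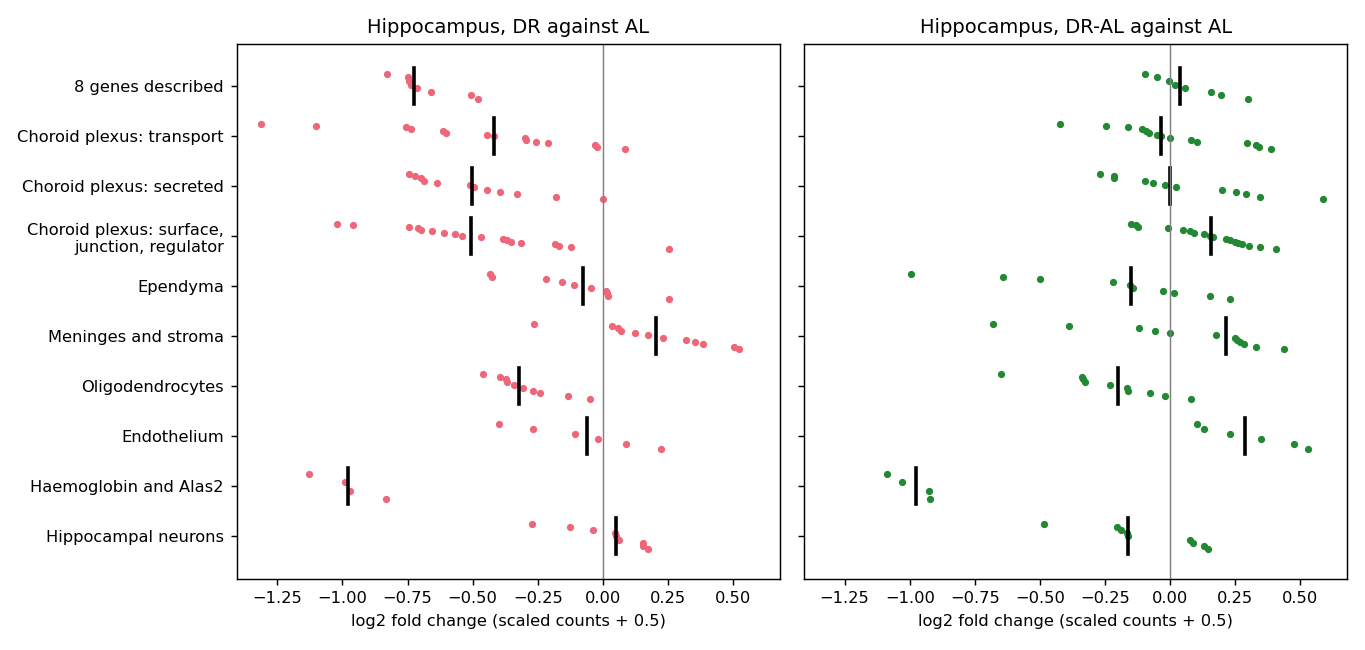
Differences from the AL library in the hippocampus as log2 fold change (horizontal), DR on the left and DR-AL on the right, 1 point per gene with a mean of at least 10 counts, grouped by list (vertical), with a black line at the median of each list. The 8 genes and the medians of the 3 other choroid plexus lists lie to the left of 0 in DR and near 0 in DR-AL, while the medians of ependyma, meninges and hippocampal neurons stay around or above 0 in DR and those of oligodendrocytes and haemoglobin genes lie to the left in both.

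Most genes that act with the 8 in their pathways were not called in the hippocampus between DR and AL, and neither were most genes tested. By the Z test 0 of 13 loci of klotho and FGF signalling, 0 of 8 of folate uptake, 0 of 9 of lysophosphatidic acid signalling, 0 of 10 of BMP and Wnt signalling, 0 of 10 other inward rectifier channels and 0 of 7 other CLIC loci were called, where 4.04% of genes were called in either direction. Of 11 loci of thyroid hormone and retinol transport 2 were higher and 1 lower, and the lower one was Stra6, the receptor that takes up retinol from its carrier, with 562, 331 and 317 counts in AL, DR and DR-AL (13.9, 10.6 and 12.6 CPM). Of 5 loci of klotho and OTX paralogs 0 were called in DR, and the related klotho beta, Klb, had 19, 6 and 3 counts at its main locus (0.469, 0.192 and 0.119 CPM). In the hypothalamic DR-AL library 5 of 11 thyroid hormone and retinol loci were lower than in AL and 1 higher, and 1 of 9 lysophosphatidic acid loci was lower. There 0 of 13 klotho and FGF loci and 0 of 8 folate loci were called by the Z test, where 15.1% of genes were called in either direction.

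The genes whose level was most like the mean of the 8 over the 6 brain libraries were Cldn2 (Pearson r = 0.999), Lars2, 5930403L14Rik, 3110047P20Rik, Tmem72, Slc4a5, Stra6, Cldn1, Fam108c and Tnfrsf19 (r = 0.995), in that order. Of 3502 genes compared, 850 had r of at least 0.95 and 43 of at least 0.99. The 6 points share libraries and regions, and the gap between the regions sets most of r. Within the hippocampus the 10 were not alike: Slc4a5 fell with the 8 genes to 348 counts in DR, while Fam108c had 44.2, 42.9 and 45.4 CPM in AL, DR and DR-AL.

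In the liver, where Ttr is made for the blood, the DR library was above AL rather than below it. Ttr had 145931, 236796 and 113664 counts in AL, DR and DR-AL (5900, 10879 and 4640 CPM), with DR log2 0.88 above AL (interval 0.87 to 0.89) and DR-AL at -0.35. Of all liver genes 28.0% were called between DR and AL and 30.9% between DR-AL and AL, so a call there is common, and with the estimated dispersion (edgeR exact test) Ttr was called in neither comparison. Rbp4, the retinol carrier that binds transthyretin, had 131332, 112185 and 115256 counts (5310, 5154 and 4705 CPM). Enpp2 had 1959, 1470 and 1852 liver counts (79.2, 67.5 and 75.6 CPM) and was not called against AL. Kl and Sostdc1 had 0 counts in the 3 liver libraries, and the other 4 genes had at most 5 counts in any of them.

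In the colon, Ttr had 672, 1375 and 772 counts in AL, DR and DR-AL (25.3, 41.1 and 30.8 CPM), log2 0.70 higher in DR than in AL (interval 0.57 to 0.84). Clic6 had 1700, 2971 and 1618 counts (64.0, 88.9 and 64.6 CPM) and was log2 0.47 higher in DR (interval 0.39 to 0.56). Folr1 had 28, 11 and 20 counts and was lower in DR, by log2 -1.63. Thus 3 of 8 were called between DR and AL, where 19.7% of genes were called, and 0 of 8 between DR-AL and AL by the Z test, where 14.4% were. With the estimated dispersion, 0 of the 3 calls between DR and AL were left (edgeR exact test). Clic6 in the colon and in the hippocampus lay on opposite sides of AL under DR, and both were near AL in DR-AL.

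In epididymal fat, Ttr had 12348, 247 and 20 counts in AL, DR and DR-AL (471, 10.8 and 0.731 CPM). Levels of genes that the liver makes in quantity are given beside it. Ttr in fat was 7.98%, 0.0995% and 0.0158% of its liver level in AL, DR and DR-AL, and for 11 liver genes (with at least 100 CPM in the liver) the median was 15.5% in AL (range 8.16 to 29.8%), 0.121% in DR (0.0903 to 0.302%) and 0.0180% in DR-AL (0.0135 to 0.287%). Ttr was below the range of the liver genes in AL and within it in DR and DR-AL. The part of liver RNA in the Ttr counts of fat was not tested.

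Kl, Folr1 and Clic6 were higher in fat in both DR and DR-AL than in AL, where 35.3% and 46.1% of all genes tested were called higher. Kl had 9, 115 and 106 counts in AL, DR and DR-AL (0.343, 5.04 and 3.87 CPM). Folr1 had 72, 191 and 361 counts (2.75, 8.37 and 13.2 CPM), and Clic6 135, 392 and 574 counts (5.15, 17.2 and 21.0 CPM). Sostdc1, at 3, 17 and 15 counts, was close to the limit. With the dispersion estimated over the fat libraries (edgeR exact test), the calls among the 8 in either direction went from 5 to 0 for DR and from 6 to 1 for DR-AL against AL, and those of Kl, Folr1 and Clic6 were lost in both. The calls before this step include Ttr, lower in both, and Enpp2, lower in DR-AL. The shares of higher calls above are therefore not a background for these counts. A list of epididymis genes summed to 918.7, 3328.9 and 5260.3 CPM in the same libraries and a list of testis germ cell genes to 3.7, 496.1 and 2535.7 CPM, and their part in these values was not tested. Enpp2, the autotaxin of adipocytes, had 10170, 9892 and 7674 counts (387.9, 433.3 and 280.5 CPM), was not called in DR and was log2 -0.47 from AL in DR-AL. From the FPKM, whose scale differed between the fat libraries, the Enpp2 value of DR turned to log2 -0.66.

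**Figure D5:**
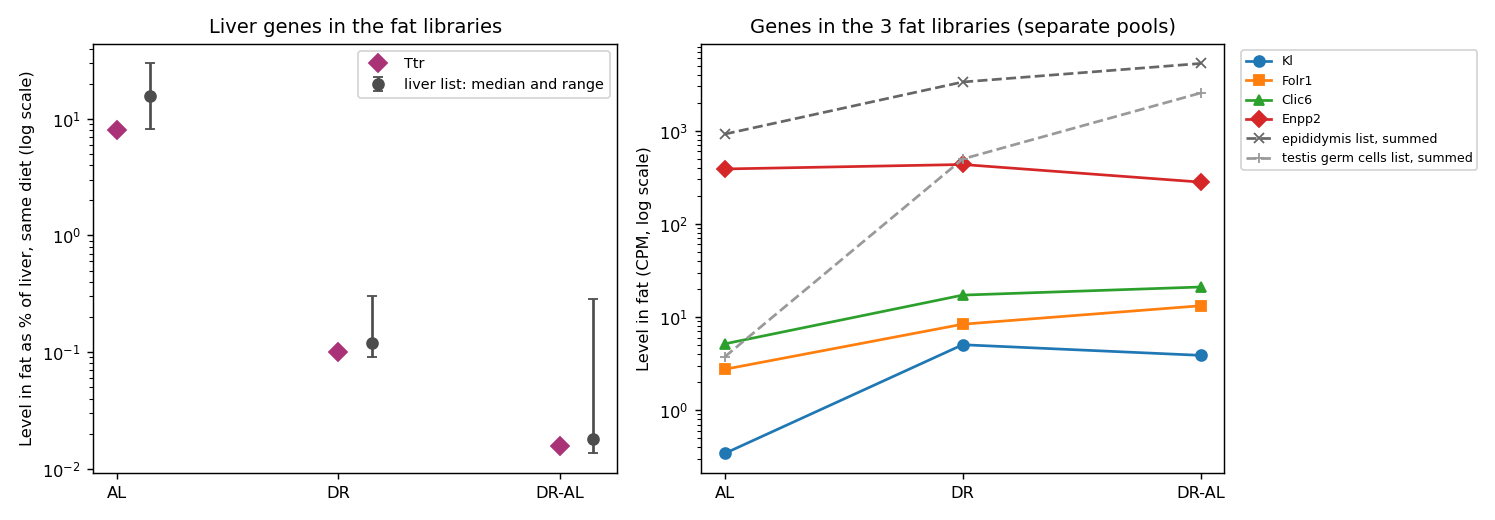
Left, level in fat as percent of the level in the liver of the same diet (log axis) for Ttr and for 11 liver genes, shown as median and range; right, level in fat in CPM (log axis) of 4 of the 8 genes and summed levels of an epididymis and a testis list, in the 3 fat libraries, with lines that join separate pools. Ttr and the liver genes drop from percents of the liver level in AL to at most 0.302% in DR, and Kl, Folr1, Clic6 and both lists are higher in DR and DR-AL.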

How the data were processed

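RNA-Seq was carried out on 5 tissues of mice on 3 diets, with 1 library per tissue and diet from RNA pooled from 5 mice. According to the methods, the authors removed ribosomal RNA, sequenced paired ends with the strand kept, aligned reads to mm10 with Strand software and removed duplicate reads, which can hold down the counts of short abundant transcripts such as Ttr. The submitters' processing notes name mm9 and DESeq2. Only 13.6% of the symbols matched to GENCODE M21 overlap their GRCm38 position in the table, so printed coordinates are those of GRCm38 and not of the table. The deposited counts are whole numbers without normalization, and between 0.258% and 1.39% of them lay on loci without a gene name, which were left out. The deposited FPKM values are per length, but their scale against CPM differed between libraries (0.0848 to 0.250 in fat), so they were compared only between genes of 1 library and as an alternative.

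The study's Z test was run on square roots of counts divided by the library total, with Poisson variance, over loci with at least 1 count in a tissue. Ratios have Clopper-Pearson intervals. The 6 brain libraries were fitted with edgeR 4.0.16 (glmQLFit, TMM, filterByExpr) in R 4.3.3, with DESeq2 1.42.0 as an alternative, and the rest was computed with Python 3.11.15 and SciPy 1.17.1. Both tests were also run on simulated data. Those for the Z test were drawn with Poisson error only, so they could not show false calls from spread between pools. A gene is like the set by its correlation with the mean of the 8 over the brain libraries, among genes that average at least 100 counts and have a range of at least 1 on the log2 scale. The genes printed are the 8, genes of the lists, and the 10 most like genes. The 8 genes and all lists were chosen with earlier results of these data known. Nothing in the labels says that pools were repeated, and the fit over both regions measures the spread between these libraries. Alternatives were other scaling, filters, fold limits, dispersions, FPKM and, in the brain fit, each library left out.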

Additional observations from a re-analysis of the deposited data

Results flagged for a closer look

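Several of the 8 genes were called in one direction in the hippocampus and in the other direction in another tissue, and the difference between the tissues was not tested, with 1 library behind each value. Between DR and AL, Ttr was at log2 -0.71 in the hippocampus, but at 0.88 in the liver and 0.70 in the colon. Kl was at log2 -0.48 in the hippocampus and 3.80 in fat, Folr1 at -0.66 and 1.6, and Clic6 at -0.75 and 1.73, with 0.47 in the colon. Kcnj13 was at log2 -0.83 in the hippocampus and 1.5 in the hypothalamus.

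Between DR-AL and DR, Ttr was at log2 0.67 in the hippocampus, but at -1.23 in the liver, -3.85 in fat and -0.42 in the colon. In the hypothalamus Kl was at log2 -0.67, Kcnj13 at -4.11 and Clic6 at -0.37, against 0.64, 0.73 and 0.94 in the hippocampus. Clic6 was at log2 -0.46 in the colon, and Enpp2 at -0.63 in fat against 0.74 in the hippocampus. The DR libraries are shared with the values between DR and AL, so the sets of values are not independent.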

How the results depend on the processing

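No paired analysis of the diets within a tissue was possible because there was 1 library per tissue and diet and the labels give no replicate numbers. The regions were compared within diets, and 7 of 8 genes were called with or without the diet term. The number of the 8 genes called between DR and AL in the hippocampus, 8, was also 8 with DESeq size factors, without the 10 most abundant genes, without the 8 genes in the total, with a mean of at least 10 counts and with FPKM plus 0.1, and 7 with FPKM plus 1. It was 5 with the estimated dispersion and 0 with a coefficient of variation of 0.1 or a fold of 2. Between DR-AL and DR in the hippocampus it was 1 with a coefficient of variation of 0.1 and 0 with a fold of 2, in place of 8, and between DR-AL and AL 1 with FPKM plus 0.1, in place of 0. In the hypothalamus, the counts for DR against AL, DR-AL against AL and DR-AL against DR were 2, 5 and 6, with a fold of 2 they were 1, 3 and 1, and with the estimated dispersion 1, 3 and 1. With a coefficient of variation of 0.1 the first and the last were 1 and 1, and with FPKM plus 0.1 the first was 4.

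In the same order, the liver counts were 2, 3 and 2. For the liver, fat and colon, no share over all genes is given for DR-AL against DR. The same holds for calls of either direction in fat, so these counts show only how calls depend on the settings. They were 1, 1 and 1 with a mean of at least 10 counts, where Ttr alone was left, 1, 0 and 1 with a coefficient of variation of 0.1, and 0, 0 and 0 with the estimated dispersion (edgeR exact test). The first was 1 with a fold of 2 and 1 with FPKM plus 1, and the first and last were 4 and 4 with FPKM plus 0.1. The fat counts were 5, 6 and 3, became 0, 1 and 0 with the estimated dispersion, and the last was 1 with a fold of 2 and 5 with FPKM plus 0.1, while the second was 3 with FPKM plus 1. The colon counts were 3, 0 and 3, and the first and last became 0 and 0 with the estimated dispersion and 1 and 0 with a fold of 2, the last 0 with a coefficient of variation of 0.1, and all 3 were 6, 1 and 6 with FPKM plus 0.1. Enpp2 in fat between DR and AL reversed with FPKM plus 0.1 or 1, to log2 -0.66 in both, from 0.16. In the brain fit, leaving out 1 library gave 0 to 1 genes for DR, 0 to 1 for DR-AL and 7 to 8 for the regions. Ttr was called for DR without the hippocampal or the hypothalamic DR-AL library, and Kl for DR-AL without the hippocampal DR-AL library. DESeq2 called 1 for DR. The causes were not tested, other than fewer genes under a stricter rule. Among values of single genes, 613 kept direction and call, 82 lost and 15 gained a call, and 2 reversed.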
